A study of Mus musculus with 2 samples.

Results

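The mitochondrial ribosomal proteins are the protein subunits of the ribosome inside mitochondria, and their genes lie in the nucleus. They were taken here as every gene whose symbol starts with Mrpl (large subunit) or Mrps (small subunit) followed by a digit. The rule found 77 genes, 48 of the large and 29 of the small subunit, among 24346 gene symbols. Their transcripts were measured by RNA-seq. The cells were in the Gr-1+ CD11b+ gate, which takes up neutrophils and monocytes. They came from BALB/c mice given 3% dextran sulfate sodium (DSS), a polymer that inflames the colon, over 6 days, which both groups share. In the control group the cells were held for 2.5 hours without ATPγS, and in the other group they received ATPγS, an ATP analogue that is hydrolysed slowly and acts on nucleotide receptors. The label writes its concentration as 100 in a molar unit whose prefix is not readable. Each group is 1 library, so no difference below has a replicate check, no test was possible, and "higher" and "lower" describe these libraries only. The labels name neither the organ nor how many animals were pooled.

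The mitochondrial ribosome makes the few proteins encoded by mitochondrial DNA, all of them core subunits of the respiratory chain and ATP synthase. Its proteins are made in the cytosol and imported, and many have bacterial counterparts while others exist only in mitochondria. Neutrophils are known for few mitochondria and a reliance on glycolysis. The large subunit joins amino acids at the peptidyl transferase centre and passes the chain through an exit tunnel, and the small subunit binds the mRNA and holds the decoding centre.

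The control library had a recovered depth of 2141000 fragments, and that of the ATPγS library was 2860000. Neutrophil markers dominated both libraries: 7 genes, led by S100a8 and S100a9, summed to 37227 FPKM (fragments per transcript length and library depth) without ATPγS and 40153 with it, and none was 2-fold apart. Monocyte markers (6 genes) summed to 280 and 258 FPKM and epithelial markers (5) to 150 and 107, with none 2-fold apart. Macrophage and dendritic cell markers (8) summed to 2877 and 3185 FPKM, of which Cd74 made up 2647 and 2825, and with ATPγS C1qc and Flt3 were at least 2-fold higher and Clec9a lower. B cell markers (7) summed to 348 and 261 FPKM with Blk at least 2-fold lower. Eosinophil, basophil and mast cell markers (6) summed to 47.3 and 38.6 FPKM with Mcpt8 at least 2-fold lower. Only 2 of these 6 genes were lower with ATPγS, and the others were higher. Of erythroid and platelet genes, Hba-a1 was at 725 FPKM in the control and 616 with ATPγS, Pf4 at 13.6 and 52.9 and Alas2 at 7.36 and 17.9. T and NK cell markers (7 genes) summed to 249 FPKM in the control, where they ranged from 2.75 to 76.5, and to 79.0 in the ATPγS library, where they ranged from 0.147 to 20.8. Of these 7, 6 were at least 2-fold lower with ATPγS and none was at 0, so the libraries also differ in markers of other cells, whose part in the values below was not tested. Odorant and vomeronasal receptor genes, which myeloid cells are not known to use, gave a reference for low values: the 95th percentile of 1309 of them was 16.3 FPKM without ATPγS and 15.7 with it. The markers Ly6g and Trac were not analysed here. In bulk RNA, fewer cells of a type and less RNA per cell cannot be told apart.

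All 77 mitochondrial ribosomal protein genes were listed above 0 in both libraries, and all passed the minimum of a mean FPKM of 1. The members nearest to that minimum were Mrps22 at a mean of 2.53 FPKM, Mrpl11 at 2.78, Mrps31 at 3.97 and Mrpl19 at 4.67, and no member lay below it. The median member had a mean of 16.4 FPKM, higher than 77.4% of the 18311 genes that passed the minimum. Together the members held 0.306% of all FPKM without ATPγS and 0.286% with it. Of the 77, 40 had a mean above the 95th percentile of the receptor genes (26 large and 14 small subunit), and 74 lay above the receptor median in both libraries. Read support was thin, with a median of 54.3 estimated reads per member without ATPγS and 68.8 with it.

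**Figure D1:**
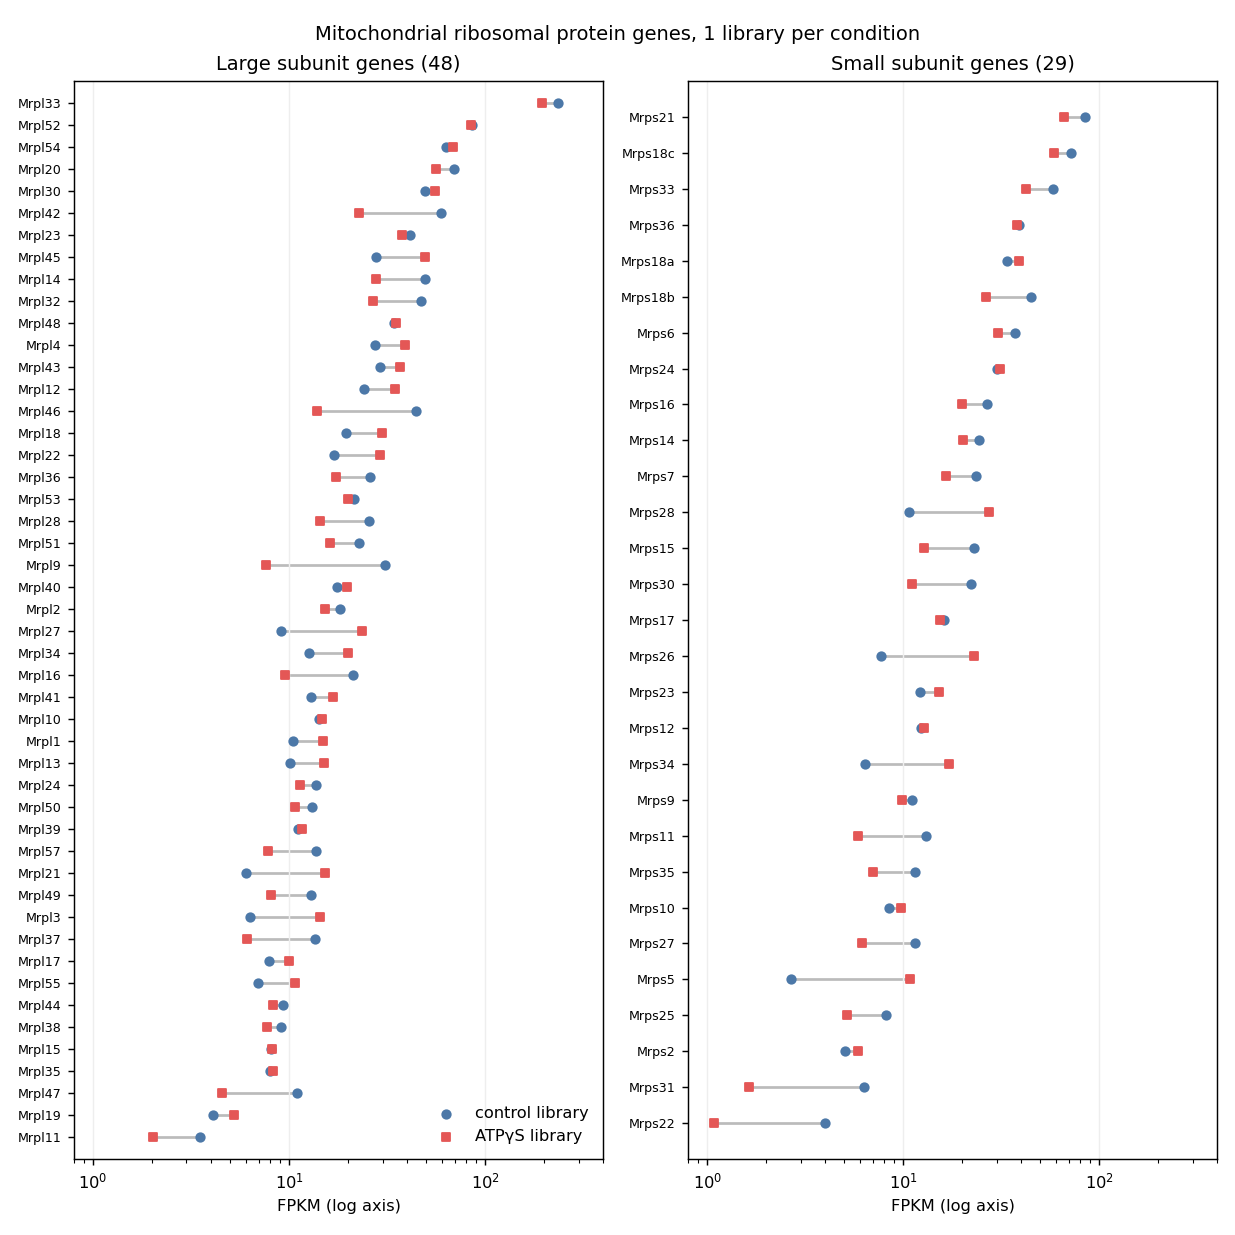
FPKM (log axis) of each of the 77 members, 1 row per gene, with the control point and the ATPγS point joined by a line, large subunit and small subunit apart. Mrpl33 stands highest in both libraries, and Mrps22 is the lowest in the ATPγS library at 1.08 FPKM.

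The genes of 1 particle did not have 1 common level. Mrpl33, a short protein of the large subunit with a bacterial counterpart, was the highest member at 236 FPKM without ATPγS and 195 with it, which was 11.8% and 10.8% of all member FPKM. In the large subunit it was followed by Mrpl52 (86.1 and 85.0 FPKM), Mrpl54 (63.1 and 68.3), Mrpl20 (69.0 and 56.5), Mrpl30 (49.3 and 55.7) and Mrpl42 (59.3 and 22.8). The small subunit was led by Mrps21 (84.5 FPKM in the control and 66.1 with ATPγS), Mrps18c (71.7 and 58.4) and Mrps33 (57.9 and 42.0). The highest member exceeded the lowest by 88.4-fold without ATPγS and by 180-fold with it. The 10 highest held 40.9% and 38.1% of member FPKM, and 8 genes were in the top 10 of both libraries. The order of members was broadly shared between the libraries (Spearman rho 0.74 over 77 genes, given as a description).

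Members with short transcripts had the higher FPKM. The median transcript length was 651 bases for the 10 highest members and 1398 for the other 67. Across the 77 members the Spearman rho of mean FPKM and transcript length was -0.58, against -0.07 over 17565 genes with a length. FPKM has length as its divisor, so both quantities share it, and the authors' own transcript lengths are not known here. The ratio between the libraries had little relation to length (rho -0.06) or to level (rho -0.01) over the members.

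**Figure D2:**
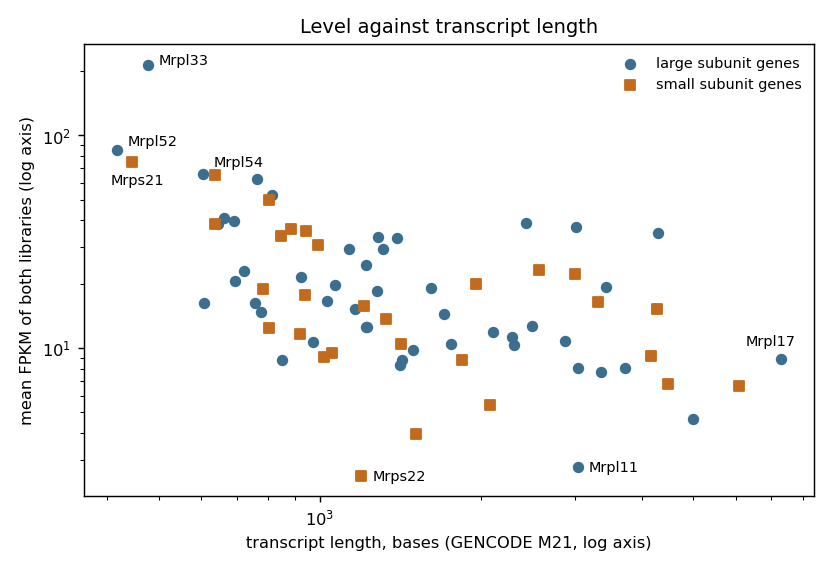
Mean FPKM of each member against its transcript length in bases, both on log axes, 1 point per gene, large and small subunit in separate colours. The 10 highest members all have transcripts of at most 816 bases.

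The comparison asked how these genes differed between cells with and without ATPγS. Most differed little, and the ones that differed went both ways. On the scale log2((ATPγS FPKM + 1) / (control FPKM + 1)), 7 of 77 were at least 2-fold higher with ATPγS and 9 were lower by that much. The same thresholds were passed by 13.8% (higher) and 9.91% (lower) of all genes at this minimum, so the members' 9.09% and 11.7% were near the background. On the same scale 47 of the 77 were within 1.5-fold, a share that was not computed for all genes. The median member had a log2 ratio of -0.13, beside a median of -0.13 over the 6125 genes with a mean of at least 10 FPKM. A log2 ratio below 0 was found for 43 of 77 members (55.8%), against 49.6% of all genes. Once the libraries were scaled to a median of 0 at a mean of at least 10 FPKM this was 50.6% against 43.1%. The share of all genes below 0 differed with level. Unscaled, it was 60.7% at a mean of at least 20 FPKM (members 63.3%) and 53.4% between 5 and 20 FPKM (members 48.8%).

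Summed over the members, FPKM was 2001 without ATPγS and 1805 with it, which gave a ratio of 0.902, and the ratio of summed reads scaled by depth was 0.925 with a 95% exact (Clopper-Pearson) interval of 0.892 to 0.959. These intervals rest on reads estimated from transcript lengths and cover counting error only. Scaled to a median of 0, the ratio of summed FPKM was 0.988. Of single members, 14 had a counting interval wholly above a ratio of 1 and 24 wholly below it, where the background was 23.1% and 23.5% of genes. That background differed with level. At a mean of at least 20 FPKM the counts were 5 and 9 of 30 members, beside 717 and 1344 of 3364 genes. Between 5 and 20 FPKM they were 9 and 14 of 43 members, beside 1352 and 1677 of 6152 genes. The interval excluded 1 for 15 of the 16 members that were 2-fold apart, Mrps22 being the exception. Fold and interval come from the same FPKM values, so this is no separate support for a difference in these 16 members. Only 5 of these 16 had a mean above the 95th percentile of the receptor genes, namely Mrpl9, Mrpl27, Mrpl42, Mrpl46 and Mrps28. Of 922 receptor genes that passed the minimum, 232 were higher and 198 lower by at least 2-fold with ATPγS.

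**Figure D3:**
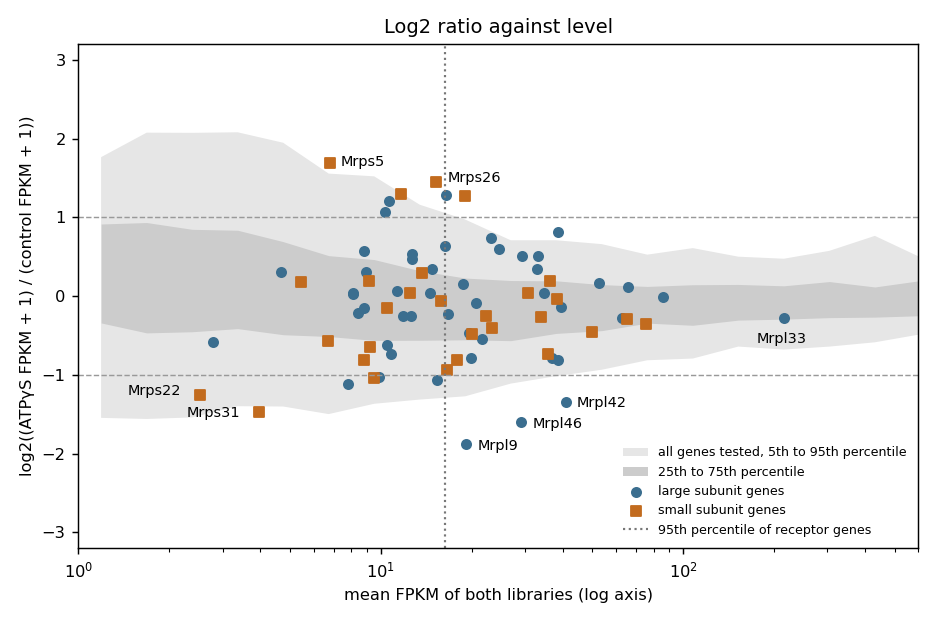
Log2 ratio of ATPγS over control (with 1 FPKM added) against mean FPKM on a log axis, 1 point per member; the grey bands hold the 5th to 95th and the 25th to 75th percentile of all genes at that level, dashed lines mark 2-fold and the dotted line the 95th percentile of the receptor genes. Of the 30 members at a mean of at least 20 FPKM, 2 lie past a 2-fold difference, Mrpl42 and Mrpl46, both lower.

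The counts differed by level. At a mean of at least 20 FPKM there were 30 members, 0 higher and 2 lower by at least 2-fold, against 2.30% and 5.0% of 3480 genes at that level. Between 5 and 20 FPKM there were 43 members, 7 higher and 5 lower, against 10.3% and 11.2% of 6412 genes. The 4 members under 5 FPKM held the other 2 that were lower, Mrps22 and Mrps31.

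In the large subunit, 3 of 48 genes were at least 2-fold higher with ATPγS and 6 at least 2-fold lower. Proteins around the peptidyl transferase centre went both ways. Mrpl27, whose bacterial counterpart reaches into that centre, was listed at 9.12 FPKM in the control and 23.6 with ATPγS, 2.59-fold higher (interval 1.41 to 4.87). Mrpl3, a core protein near the same site, was at 6.32 and 14.4 FPKM, 2.28-fold higher (1.52 to 3.56). With its shortest coding transcript the interval of Mrpl3 was 0.910 to 7.25, which includes no difference. Mrpl16, which lies by the tRNA sites, was at 21.1 and 9.53 FPKM, 2.21-fold lower, with an interval of 0.287 to 0.729 for the ratio of ATPγS over control. With Mrpl2 and Mrpl4 these 5 genes summed to 82.0 FPKM in the control and 102.0 with ATPγS, so their sum was higher although Mrpl16 was lower.

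Around the exit tunnel, 5 of 6 genes were within 2-fold. Mrpl47 was the exception at 11 FPKM in the control and 4.53 with ATPγS, 2.43-fold lower (interval of the ratio 0.282 to 0.610). Mrpl45, which helps to hold the ribosome at the inner membrane, was at 27.7 and 49.6 FPKM, 1.79-fold higher with an interval of 1.47 to 2.19. Mrpl22, which lines the tunnel, was at 17.0 and 29.1 FPKM, 1.71-fold higher (1.07 to 2.85). The 3 proteins of the stalk that recruits translation factors, Mrpl10, Mrpl11 and Mrpl12, summed to 41.9 FPKM in the control and 51.4 with ATPγS, with none 2-fold apart.

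The lowest ratio of all 77 members was that of Mrpl9 (chr3:94443318-94451130), a protein with a bacterial counterpart, at 30.8 FPKM in the control and 7.62 with ATPγS, 4.04-fold lower (log2 ratio -1.88, interval of the ratio 0.164 to 0.365). Mrpl46, a mitochondria-specific protein, was at 44.4 and 13.96 FPKM, 3.18-fold lower (0.215 to 0.446). Mrpl42, another mitochondria-specific protein, was at 59.3 and 22.8 FPKM, 2.602-fold lower (0.259 to 0.560). Each of these 3 rested on at least 84 estimated reads in the control. Mrpl37, also mitochondria-specific, was at 13.5 and 6.13 FPKM, 2.21-fold lower (0.267 to 0.754). Mrpl21, with a bacterial counterpart, was at 6.05 and 15.3 FPKM, 2.53-fold higher (1.27 to 4.91). The 39 other large subunit genes had log2 ratios between -0.81 (Mrpl14) and 0.82 (Mrpl45).

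In the small subunit, 4 of 29 genes were at least 2-fold higher with ATPγS and 3 at least 2-fold lower. Mrps5 (chr2:127587222-127606829), whose bacterial counterpart sits at the mRNA entry, had the highest ratio of all members. It was at 2.67 FPKM in the control and 10.9 with ATPγS, 4.08-fold higher (log2 ratio 1.69, interval 2.62 to 6.34). With its shortest coding transcript the interval of Mrps5 was 1.10 to 44.4. Mrps26, a mitochondria-specific protein, was at 7.74 and 22.8 FPKM, 2.95-fold higher (2.26 to 3.87). Mrps34, also mitochondria-specific, was at 6.35 and 17.0 FPKM, 2.68-fold higher (1.46 to 5.83). Mrps28 was at 10.7 and 27.2 FPKM, 2.55-fold higher (1.48 to 4.56). All 4 were below the 95th percentile of the receptor genes in the control library, and each of the 4 was above it with ATPγS except Mrps5.

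Lower in the ATPγS library were Mrps31 and Mrps22, which are mitochondria-specific, and Mrps11, which has a bacterial counterpart at the platform that faces the large subunit. Mrps31 was at 6.30 FPKM in the control and 1.64 with ATPγS, 3.84-fold lower (interval of the ratio 0.0936 to 0.645). Mrps22 was at 3.97 and 1.08 FPKM on an estimated 10 and 4 reads, and its interval of 0.0686 to 1.04 includes no difference. Mrps11 was at 13.1 and 5.88 FPKM, 2.23-fold lower (0.236 to 0.832). The 22 other small subunit genes had log2 ratios between -0.94 (Mrps30) and 0.29 (Mrps23, 12.2 and 15.1 FPKM). Near the lower end were Mrps27, a pentatricopeptide repeat protein, and Mrps15, both at -0.81. Mrps7, Mrps9 and Mrps12, which line the decoding centre and the tRNA path, summed to 46.9 FPKM in the control and 39.2 with ATPγS, with none 2-fold apart.

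Large and small subunit genes had overlapping ratios. The median log2 ratio was 0.003 over 48 large and -0.27 over 29 small subunit genes, a difference of 0.27 that was not tested. The standard deviation across genes was 0.70 and 0.78. With means in place of medians both were below 0, at -0.09 and -0.15. The large subunit median also lay below 0 with 5 FPKM added before the log (-0.0006) and at a mean of at least 20 FPKM (-0.02), so it has no stable sign. Summed FPKM was 1335 in the control and 1219 with ATPγS for the large subunit (ratio 0.913), and 666 and 585 for the small (0.879). The ratios of summed reads scaled by depth were 0.930 (0.890 to 0.972) and 0.914 (0.859 to 0.973), which overlap. The small subunit took 33.3% of member FPKM in the control and 32.4% with ATPγS, and 34.0% (32.8 to 35.3) and 33.7% (32.5 to 34.8) of member reads. A difference in subunit balance was thus not detectable at this depth. The level of a typical gene was also alike, with a median mean FPKM of 16.5 in the large and 15.8 in the small subunit.

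**Figure D4:**
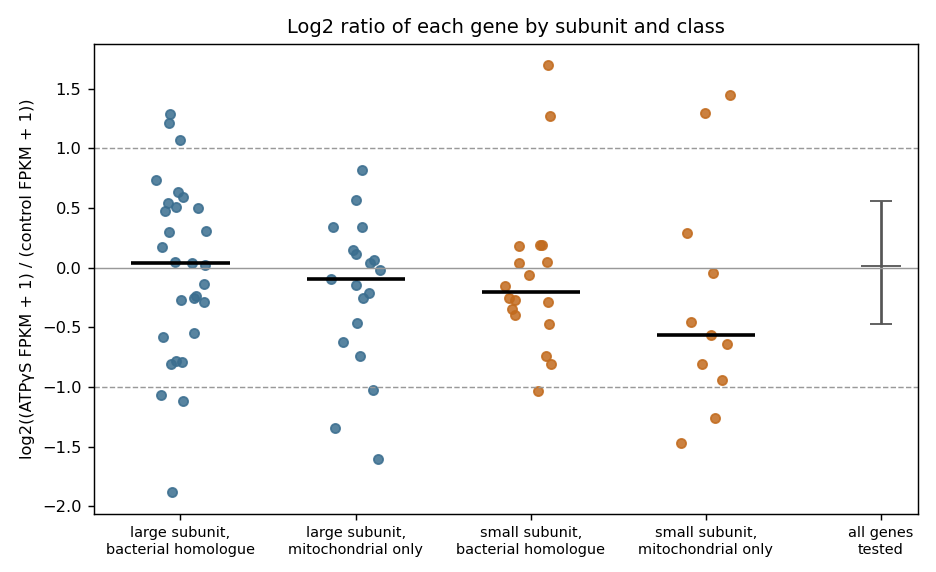
Log2 ratio of ATPγS over control (with 1 FPKM added), 1 point per gene, for large and small subunit genes with a bacterial homologue or found only in mitochondria. Subunits are by symbol. Black lines are medians (0.04, -0.09, -0.20 and -0.57 from left to right), the bar at the right spans the 25th to the 75th percentile of all genes tested around their median, dashed lines mark 2-fold, and the points of all sets overlap.

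Some symbols do not match the place of the protein. Mrps18a and Mrps30 sit in the large subunit of the mammalian particle, and Mrps36 is a component of the oxoglutarate dehydrogenase complex of the citric acid cycle. Mrps18a was at 34.0 FPKM in the control and 38.8 with ATPγS, Mrps30 at 22.1 and 11.02, and Mrps36 at 38.9 and 37.8. With these 3 placed by structure, the difference of the subunit medians was 0.28. The Mrps18 paralogues, which share a bacterial ancestor, did not have 1 pattern: Mrps18b was at 44.9 and 26.5 FPKM (log2 ratio -0.74), Mrps18c at 71.7 and 58.4 (-0.29) and Mrps18a had a log2 ratio of 0.19.

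Genes with and without a bacterial homologue are set side by side next. Of 47 genes with a bacterial homologue, 5 were higher and 4 lower by at least 2-fold, with a median log2 ratio of -0.07. Of 30 genes found only in mitochondria, 2 were higher and 5 lower, with a median of -0.18. In the small subunit by symbol, the medians were -0.57 over 11 mitochondria-specific genes and -0.20 over 18 with bacterial homologues. The 11 thus include Mrps30 and Mrps36, and the 18 include Mrps18a. These differences of medians were not tested.

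The cytosolic ribosomal proteins, which build the ribosome outside mitochondria, varied less. Of 82 that passed the minimum, none was higher and 1 was lower by at least 2-fold. Their median log2 ratio was -0.21 with a standard deviation across genes of 0.28, against 0.73 across the 77 mitochondrial genes, and their summed FPKM had a ratio of 0.871. Their median level in the control was 239 FPKM, against 16.2 for the mitochondrial members, so counting error is smaller for them, and its part in the difference in spread was not tested.

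The other genes of mitochondrial translation gave a mixed picture too. Of 6 mitochondrial ribosomal proteins known by other symbols, none was higher and 2 were lower by at least 2-fold, with a median log2 ratio of -0.45. These were Ict1, a peptidyl-tRNA hydrolase built into the large subunit, at 30.6 FPKM in the control and 9.90 with ATPγS, and Chchd1 of the small subunit at 37.1 and 16.4. Aurkaip1, also of the small subunit, was at 38.5 and 23.1 FPKM, and Dap3, its GTP-binding protein, at 5.98 and 5.52. Of 15 translation factors and partners, 1 was higher (Tsfm, an elongation factor, at 1.87 and 5.05 FPKM) and none lower, with a median of 0.08. The interval of Tsfm, 0.901 to 8.82, includes no difference. Tufm, the elongation factor that brings aminoacyl-tRNA, was at 20.5 and 24.1 FPKM, the initiation factor Mtif2 at 15.3 and 9.91, the membrane insertase Oxa1l at 7.80 and 10.7, and the mRNA-binding protein Slirp at 35.4 and 29.1.

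Of 22 mitochondrial aminoacyl-tRNA synthetases and amidotransferase subunits, 1 was at least 2-fold higher (Mars2) and 3 at least 2-fold lower (Rars2, Aars2 and Pars2), with a median log2 ratio of -0.25. Rars2, the arginine enzyme, was at 9.19 FPKM in the control and 1.15 with ATPγS. Mars2 (0.407 and 1.827 FPKM), Aars2 (3.692 and 0.259) and Pars2 (2.258 and 0.134) were low. Each of them had a mean FPKM below the receptor gene medians of 1.997 without ATPγS and 2.261 with it. Fars2, the phenylalanine enzyme, was at 6.45 and 12.4 FPKM, within 2-fold. Gatb and Qrsl1, subunits of the amidotransferase that makes glutaminyl-tRNA, were at 6.57 and 3.62 FPKM and at 6.59 and 3.86.

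Among 26 assembly and rRNA modification factors, 5 were at least 2-fold higher (Eral1, Mterf4, Noa1, Mrm1 and Trmt2b) and 4 at least 2-fold lower (Mettl17, Rnmtl1, Malsu1 and Mtg1), with a median of 0.19. Eral1, a chaperone of the small subunit rRNA, was at 3.02 FPKM in the control and 14.1 with ATPγS. Mterf4, a partner in large subunit assembly, was at 1.98 and 10.4 FPKM. Mettl17, a small subunit assembly factor, was at 10.5 and 2.11 FPKM, and the rRNA methyltransferase Rnmtl1 at 8.78 and 1.70. Genes acting on the same subunit thus stood on both sides, and each of these 4 was listed below 16.3 FPKM in both libraries. Trmt2b, at 1.90 and 4.89 FPKM, and Mtg1, at 3.14 and 0.588, were also low.

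Many of the genes lie head to head with another gene. A protein-coding gene on the other strand started within 1000 bases of 33 of 77 members (42.9%), against 11.1% of 19861 protein-coding genes and 15.1% of the 8901 with a mean of at least 5 FPKM. The count was 24 of 48 large subunit genes (50%) and 9 of 29 small subunit genes (31.0%). These formed 32 pairs, of which 29 had both genes above the minimum. The log2 ratios had the same sign in 13 and opposite signs in 16 of the 29, with a Spearman rho of -0.08 (a description over pairs of 2 shared libraries). In 22 pairs both ratios lay farther from 0 than the 0.13 by which rescaling shifts the libraries, and of these 10 had the same sign and 12 opposite signs.

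**Figure D5:**
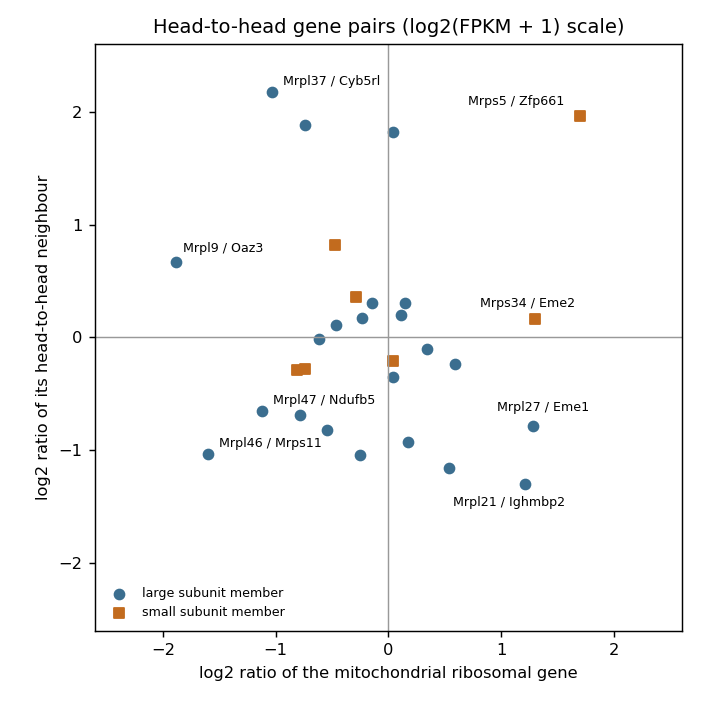
Log2 ratio of the partner gene against that of the member for 29 head-to-head pairs, both with 1 FPKM added, 1 point per pair. Points fall in all quadrants, 13 with the same and 16 with opposite signs.

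Of 8 such pairs whose member was 2-fold apart, the partner was 2-fold apart in the same direction in 2. Mrpl46 and Mrps11 form 1 of them on chromosome 7, a large and a small subunit gene that were both lower. Mrps5 forms the other with the zinc finger gene Zfp661, listed at 0.991 FPKM in the control and 6.78 with ATPγS. Mrpl21 went against its partner Ighmbp2, a helicase, at 6.09 and 1.87 FPKM, and Mrpl37 against the reductase gene Cyb5rl, at 0.260 and 4.67. Partners of other mitochondrial functions were seen in Mrpl36 with Ndufs6, a complex I subunit at 97.4 and 54.8 FPKM, Mrpl47 with Ndufb5, another complex I subunit at 36.9 and 23.1, and Mrps12 with the serine tRNA synthetase Sars2 at 3.84 and 3.19.

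Such neighbours bear on what was counted, because the library preparation does not mark strand. Exons of 20 of the 77 members overlapped a protein-coding gene on the other strand, among them 7 of the 16 that were 2-fold apart: Mrpl9, Mrpl21, Mrpl27, Mrpl46, Mrpl47, Mrps11 and Mrps34. The share of all genes with such an overlap was not computed. Reads from the shared bases cannot be assigned to 1 gene. Among these 7 members the longest overlap was 1309 bases, between Mrps34 and Mapk8ip3, listed at 5.30 FPKM in the control and 4.28 with ATPγS. That overlap exceeds the median transcript length of 918 bases used for Mrps34. Mrpl47 shared 616 bases with Ndufb5 and 452 with Actl6a, the latter at 26.8 and 21.3 FPKM. The overlap was 173 bases between Mrpl46 and Mrps11, 157 between Mrpl9 and Oaz3 (5.91 and 9.95 FPKM), 117 between Mrpl21 and Ighmbp2 and 75 between Mrpl27 and Eme1.

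Short motifs were present in a larger share of the members' promoters than of all promoters. RefSeq windows (GRCm38.p6, the build called mm10) of 250 bases before and 50 after the start were found for 68 of 77 members and for 17191 genes of the tables, and both strands were searched. CCGGAAG, a core of ETS factors such as GABPA, was in 25 of 68 member windows (36.8%), against 12.8% of all and 19.1% of the 7521 with a mean of at least 5 FPKM. AAGATGGC, a YY1 core, was in 12 (17.6%) against 3.64% and 5.28%, and CGCATGCG, an NRF1 core, in 7 (10.3%) against 2.80% and 3.92%. An AAGATGGC can begin in the last 3 letters of a CCGGAAG, and Mrps12, Mrps18a and Mrps27 hold both motifs. At least 1 of the motifs was in 37 windows (54.4%) against 17.7% and 25.8%. GABPA, NRF1 and YY1 are known regulators of nuclear genes for mitochondria, and a match here is a description of letters. CCGGAAG was in 4 of 5 windows of members 2-fold higher with ATPγS (Mrpl3, Mrpl21, Mrpl27 and Mrps26), in 1 of 9 of those 2-fold lower (Mrps22), and in 20 of 54 of the rest. These are counts of few genes and were not tested.

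The stretches below are the 100 bases before the RefSeq start, read 5′ to 3′ on the gene's strand, with a motif in capitals. They show a CCGGAAG close to the start in a member that was higher (Mrpl3, plus strand, chr9:105053168-105053267) and in Mrps22 (minus strand, chr9:98601680-98601779), which was listed lower with an interval that includes no difference. These examples say nothing of the motif and the direction of a difference. Mrpl9 (plus strand, chr3:94443236-94443335), the member with the lowest ratio, carries CGCATGCG. Mrpl42 (minus strand, chr10:95501950-95502049) and Mrpl33 (plus strand, chr5:31613851-31613950), a lower member and the highest one, have no motif in these stretches, although their full windows hold AAGATGGC and CCGGAAG.
Mrpl3: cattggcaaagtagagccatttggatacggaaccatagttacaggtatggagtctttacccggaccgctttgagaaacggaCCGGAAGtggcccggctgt
Mrps22: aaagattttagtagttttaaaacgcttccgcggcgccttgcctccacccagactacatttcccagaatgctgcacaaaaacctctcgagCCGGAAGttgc
Mrpl9: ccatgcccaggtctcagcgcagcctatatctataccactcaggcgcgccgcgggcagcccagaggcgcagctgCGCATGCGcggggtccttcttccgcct
Mrpl42: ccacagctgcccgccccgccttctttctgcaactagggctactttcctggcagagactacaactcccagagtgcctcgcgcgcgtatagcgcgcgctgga
Mrpl33: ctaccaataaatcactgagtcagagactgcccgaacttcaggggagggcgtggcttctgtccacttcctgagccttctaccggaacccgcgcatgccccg

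The first base of the motif lay 19 bases before the RefSeq start in Mrpl3, 11 in Mrps22 and 27 in Mrpl9. By the GENCODE starts these distances differ: the motif of Mrpl3 then lies inside the first exon and that of Mrps22 farther upstream. The pair of Mrpl46 and Mrps11 is the only head-to-head pair within the family, and the whole stretch between their RefSeq starts is 41 bases (chr7:78783090-78783130, plus strand, the direction of Mrps11), with none of the motifs.
Mrpl46-Mrps11 gap: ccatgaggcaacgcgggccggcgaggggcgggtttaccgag
In the GENCODE annotation (M21, GRCm38) the outermost starts of these genes overlap, with Mrpl46 at chr7:78775236-78783531 on the minus strand and Mrps11 at chr7:78783119-78792989 on the plus strand.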

How the data were processed

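RNA of Gr-1+ CD11b+ cells was measured in 2 libraries, 1 per group. The SMART-Seq HT kit gave the cDNA and the Nextera kit the library, per the labels' protocols, so strand was not marked. Reads on mm10 passed through Cufflinks 2.2.1, SAMtools 0.1.19, TopHat2 2.0.13 and Bowtie2 2.2.3 in an order not given here, per the submitters' processing notes. The authors deposited 1 FPKM value per gene symbol. The annotation is not given in the sources used here, and FPKM as the unit was read from the tools and the values.

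Depth was recovered from the steps of FPKM times coding length in 1309 receptor genes. In each library 69.4% of the values under 10 reads were whole within 0.05 reads, where a step unrelated to the values gives 10%. The step was fitted to these same values, so this share is not a separate check of the depth. Reads of a gene were estimated from its median transcript length in GENCODE M21 (GRCm38), which matched 23310 symbols (95.7%). The median was taken over transcripts linked to a RefSeq mRNA, or over all transcripts of a gene where none was linked. The sum of estimated reads over genes tested exceeded the recovered depth by 7.62% and 6.36%. No count test was run. Log2 ratios have 1 FPKM added, which understates the difference of low genes, so a gene such as Mrps30 can be 2-fold apart by FPKM and not on this scale, and printed folds have no addition. The counts cover genes whose mean FPKM was 1 or more. Each ratio interval is 95% exact (Clopper-Pearson).

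Named were members at least 2-fold apart, the highest 6 of each subunit, the 5 highest and 5 lowest ratios per subunit at a mean of at least 5 FPKM, those nearest the minimum, the Mrps18 paralogues, Mrps30 and Mrps36, the 4 largest ratios of each partner list at a mean of at least 5 FPKM, and of the 2 most abundant markers per list those given. Members named for a role, a neighbour, a partner or a motif, the less abundant markers, and the low partner genes that were 2-fold apart, were added after their values were seen. The summed level of the erythroid and platelet marker list is not reported here. Members and lists were chosen with earlier results of these data known. Alternatives were pseudocounts of 0.1 and 5, other minimums, 2 rescalings, thresholds of 1.5-fold and 3-fold, means for medians, subunit by structure, and, added after seeing the data, the shortest or longest coding transcript. The steps were tested on simulated data. Python 3.11.15, numpy 2.4.6, pandas 2.3.3, scipy 1.17.1 and matplotlib 3.10.9 were used.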

Additional observations from a re-analysis of the deposited data

How the results depend on the processing

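With 1 library per group, replicate error is unknown and no library could be left out. No paired analysis was possible because the groups share only 1 replicate number. With 5 FPKM added before the log, 4 members were at least 2-fold higher and 3 lower, beside 3.06% and 2.52% of all genes tested. The large subunit median was then -0.0006. At a mean of at least 20 FPKM the counts were 0 and 2, and that median was -0.0181. Thresholds of 1.5-fold gave 11 and 19, and of 3-fold 1 and 2, and the shares of all genes at these thresholds were not computed. The mean ratio of the large subunit was -0.0921. The ratio of summed FPKM was 0.9369 with libraries scaled to the same sum and 0.9877 with a median of 0, where the median of genes at a mean of at least 10 FPKM shifted by 0.05 and 0.13. Ratios closer to 0 than this have no direction. With 5 FPKM added, 9 members fell short of 2-fold (Mrpl3, Mrpl16, Mrpl21, Mrpl37, Mrpl47, Mrps11, Mrps22, Mrps31 and Mrps34), at the same sum Mrpl37 and Mrps11, and at a median of 0 also Mrpl16. Before rescaling, the log2 ratios of Mrpl37 and Mrps11 were both -1.03 and that of Mrpl16 was -1.07, close to the 2-fold threshold. What lies behind the differences of these members was not tested. No symbol marked a pseudogene, so leaving those out changed nothing. The shortest coding transcripts gave 10 members with an interval above 1 and 19 below, and 14 of the 16 members 2-fold apart then excluded 1. The exceptions were Mrpl3 and Mrps22.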
